A study of Homo sapiens with 6 samples.

Results

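The major heat shock chaperones of the cytosol and the mitochondria were followed by their read counts: HSPA8, HSPA1A, HSPA1B, HSPH1, DNAJB1, HSP90AA1, HSP90AB1, HSPD1, HSPE1 and HSPB1. These 10 genes were chosen by symbol from the 56638 genes listed in the count tables. No rule on their measured values was used, but earlier results of these data were known. All 10 had enough reads to be tested. The libraries came from the established colorectal cancer line DLD-1, of human origin, transfected with a control siRNA (3 libraries) or with an siRNA against lncSLCC1 (3 libraries), a long non-coding RNA listed as RP11-400N13.2. Both groups were grown in the same serum-containing medium, no heat or other stress is described in the labels, and each library was made from total RNA. How many siRNAs were used, and which, is not stated in the labels, and 1 cell line was studied. The labels do not say whether replicates were separate cultures, and p-values then measure only library-to-library spread, which may be technical.

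Heat shock proteins bind unfolded or newly made proteins and help them to fold, to be held soluble or to be passed on for degradation. HSP70 proteins work in an ATP-driven cycle that J-domain proteins start and nucleotide exchange factors end, HSP90 proteins take over many signalling clients from HSP70, and in the mitochondrial matrix HSP60 and HSP10 form a folding chamber. In cells under proteotoxic stress, heat shock factor 1 (HSF1) binds heat shock elements, which are inverted repeats of the unit GAA, and raises the transcription of many of these genes; cancer cells often carry high basal levels of them.

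Heat shock elements were looked for in the promoters because they are the sequence that the chaperones are known to share. RefSeq promoter windows of 300 bases (250 before to 50 after an annotated start, assembly GRCh38.p14) were present for all 10 chaperones, 16 windows in all. They were searched on both strands for GAANNTTCNNGAA, which holds 3 repeat units, and for GAANNTTC and TTCNNGAA, which hold a pair of units and can lie inside the longer word. The 3-unit word was in 4 of the 16 windows and in 0.489% of the 34943 distinct windows of the table (171 windows), and at least 1 of the 3 words was in 9 windows, belonging to 8 chaperones, against 13.5% of all windows. HSPH1 and HSPE1 held none of the 3 words in these windows, which says nothing of elements elsewhere or with other letters. The stretches below show the matched letters in capitals, 5′ to 3′ on the strand of the gene.
HSPA8 first stretch: ggcgagcttGAAAGTTCCAGAAcgctgcgg
HSPA8 second stretch: gcgggccccTTCTGGAAGGTTCtaagatag
HSPA1A: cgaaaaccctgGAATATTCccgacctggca
HSPA1B: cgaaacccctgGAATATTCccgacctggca
DNAJB1: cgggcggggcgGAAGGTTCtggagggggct
HSP90AA1: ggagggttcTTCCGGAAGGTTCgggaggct
HSP90AB1 first stretch: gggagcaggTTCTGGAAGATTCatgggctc
HSP90AB1 second stretch: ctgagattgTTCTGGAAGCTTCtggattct
HSPD1: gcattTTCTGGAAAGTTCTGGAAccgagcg
HSPB1: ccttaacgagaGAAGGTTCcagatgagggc

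Matches with 3 units were found in HSPA8, HSP90AA1, HSP90AB1 and HSPD1. The HSPA8 stretches lie at chr11:123062346-123062375 and chr11:123062171-123062200 on the minus strand, where the matches begin 230 and 55 bases before the start. The HSP90AA1 stretch lies at chr14:102087112-102087141 (minus strand), 88 bases before 1 of the 2 annotated starts, and the HSP90AB1 stretches at chr6:44247769-44247798 and chr6:44247822-44247851 (plus strand), 165 and 112 bases before 1 of 3 annotated starts. The HSPD1 match, 18 bases long, lies at chr2:197500061-197500090 on the minus strand, 245 bases before 1 of 2 annotated starts. This stretch is also just upstream of the HSPE1 window, which begins at chr2:197500129 on the plus strand and so leaves it out. HSPA1A (chr6:31815426-31815455) and HSPA1B (chr6:31827622-31827651), neighbouring genes on the plus strand, hold the same 8-base word 106 and 105 bases before their starts, and their promoter windows were 92% identical (277 of 301 aligned columns). DNAJB1 (chr19:14518456-14518485, minus strand) and HSPB1 (chr7:76302480-76302509, plus strand) hold GAANNTTC, in DNAJB1 77 bases before 1 of 3 annotated starts. Not all matches are printed above. DNAJB1 holds GAANNTTC again 47 bases before that start and at another start, and HSP90AA1 holds TTCNNGAA 68 bases before the start named above. These are matches of letters, and no binding was measured in this study.

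Libraries held 12572277 to 15568075 reads assigned to genes. Levels are given as CPM, gene reads scaled to a common library total by TMM. RP11-400N13.2, the siRNA target, stood at 5.19 to 9.29 CPM in controls and at 1.66 to 2.61 CPM after lncSLCC1 siRNA (log2 fold change -1.88, SE 0.264, edgeR adjusted p = 0.0027). Of the 10 colorectal epithelial markers, 9 had enough reads to be tested; KRT8 stood at 3196 to 4315 CPM and CDX1 at no more than 0.355 CPM. Summed levels in controls and after lncSLCC1 siRNA were 5786 to 7208 and 5890.2 to 6218 CPM for the epithelial markers, 2.34 to 2.86 and 3.05 to 3.34 CPM for 7 fibroblast markers, 1.85 to 2.34 and 1.34 to 2.02 CPM for 7 leukocyte markers, and 1.30 to 2.42 and 1.56 to 2.23 CPM for 5 endothelial markers, with DCN, LUM, PECAM1 and KDR at 0 reads in each. VIL1, an epithelial marker that encodes villin, rose (log2 fold change 0.87, SE 0.147), and so did PDGFRB, a fibroblast marker, from 0.426 to 0.714 CPM in controls to 0.862 to 1.56 CPM (1.28, SE 0.363, edgeR adjusted p = 0.0448). Of the 9 tested epithelial markers, 1 rose, 0 fell and 8 did not pass the test, with a median log2 fold change of 0.09. Those 8 had either sign, as with CDX2 (-0.28) and CDH1 (0.23). COL1A1, the other tested fibroblast marker, did not pass (-0.18). Over all tested genes, 6.46% rose and 7.39% fell. The PDGFRB call was lost by DESeq2 (0.068), by limma-voom (0.0538) and without control library 2 or any 1 lncSLCC1 siRNA library (0.0525 to 0.176). Both VIL1 and PDGFRB were named after their values were seen, and their part in the results was not tested. Control replicate 1 stood apart: over all tested genes its root mean square log2 difference was 0.422 and 0.494 from control replicates 2 and 3, which differed by 0.31 from each other, whereas the lncSLCC1 siRNA libraries differed by 0.261 to 0.274 among themselves. Each chaperone is therefore given with and without that library.

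Of the 10 chaperones, 2 fell, 0 rose and 8 did not pass the test after lncSLCC1 siRNA. The 2 that fell, HSPA8 and HSPA1B, both encode cytosolic HSP70. Among all 15242 genes tested, 13.8% were called, 7.39% lower and 6.46% higher, so 2 of 10 stands close to the background and is no result about the chaperones as a set. The count rests on edgeR's quasi-likelihood test with Benjamini-Hochberg adjustment over all tested genes, at an adjusted p under 0.05; 2 of the 10, and 4819 of all 15242, had an unadjusted p under 0.05, and DESeq2 called 2 of the 10 lower and 0 higher, against 1232 lower and 975 higher among all genes. The median log2 fold change of the 10 was -0.10, against 0.01 over all tested genes, with 3 positive and 7 negative values. The groups did not overlap for 4 of the 10 (3 lower, 1 higher), where 39% of all tested genes did not overlap (19.6% lower, 19.4% higher). Together the 10 genes took 1.43% to 1.47% of the gene reads of each library.

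**Figure D1:**
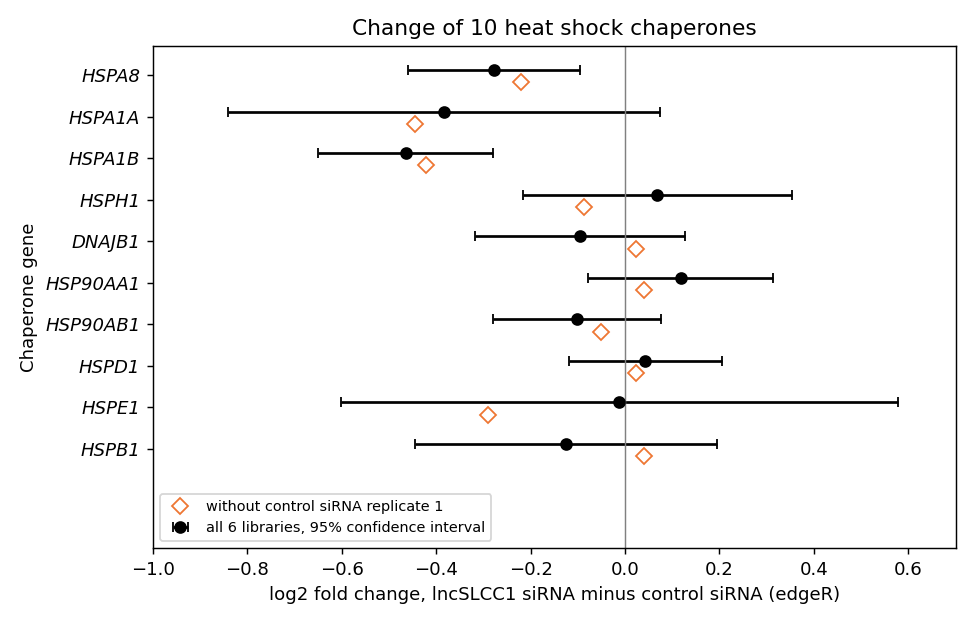
Log2 fold change of each chaperone, lncSLCC1 siRNA minus control siRNA, by edgeR: black points with 95% CIs use all 6 libraries (3 per group), open diamonds leave out control siRNA replicate 1. The intervals of HSPA8 (-0.46 to -0.10) and HSPA1B (-0.65 to -0.28) lie below 0, and those of the other 8 genes include 0.

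The HSP70 system holds the members with the clearest differences. HSPA8, which encodes the constitutive cytosolic HSP70 (HSC70) that folds new chains and drives clathrin uncoating, was read at 4940.1, 4410.3 and 4380.01 CPM in the controls, in the order of replicates 1, 2 and 3, against 3821, 3713 and 3792 CPM after lncSLCC1 siRNA in the same order. All 3 lncSLCC1 siRNA libraries lay below all 3 controls, and control replicate 1 was the highest of the 6. The group level fell from 4577 ± 315 to 3775 ± 55.4 CPM (mean ± SD, n = 3 per group), or to 82.5%. On the log2 scale the change was -0.28 (SE 0.081, 95% confidence interval, CI, from -0.46 to -0.10, edgeR adjusted p = 0.0489). The HSPA8 difference rests on 48749 to 69517 reads per library. In bulk RNA, less RNA per cell and fewer cells with the RNA cannot be told apart. The call was lost with library totals (edgeR adjusted p = 0.0573), with a filter at a mean of 1 CPM (0.0519), with robust empirical Bayes (0.0508), and without control replicate 2 (0.0972) or lncSLCC1 siRNA replicate 1, 2 or 3 (0.169, 0.214 and 0.181), over log2 fold changes of -0.31 to -0.21. Without control replicate 1 the log2 fold change was -0.22 (SE 0.043, edgeR adjusted p = 0.000446).

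HSPA1B, one of a pair of genes that encode the stress-inducible HSP70, also fell. It stood at 171, 165 and 149 CPM in the controls and at 123, 116 and 113 CPM after lncSLCC1 siRNA, in the order of the replicate numbers. The groups did not overlap, with a gap between the lowest control and the highest lncSLCC1 siRNA library wider than the range within either group. The group level fell from 162 ± 11.3 to 117 ± 5.22 CPM (mean ± SD, n = 3 per group), or to 72.4% (log2 fold change -0.46, SE 0.083, 95% CI -0.65 to -0.28, edgeR adjusted p = 0.00771). Without control replicate 1 the change was -0.42 (SE 0.061, edgeR adjusted p = 1.5e-05). The HSPA1B call was lost when lncSLCC1 siRNA library 2 or 3 was dropped (adjusted p = 0.0624 and 0.065 by edgeR), at -0.46 and -0.44.

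HSPA1A, the other gene of that pair, was counted with 25 to 49 reads per library against 1448 to 2538 for HSPA1B. In the GENCODE release 29 transcripts, 72.6% of the 50-base words of HSPA1A also occur in HSPA1B, and 71.4% of those of HSPA1B occur in HSPA1A. A read from either gene therefore often has no unique place. Exons of AL671762.1 on the same strand hold 47.8% of the coding bases of HSPA1B and 0% of those of HSPA1A. The annotation release behind the counts is not stated. The deposited counts hold an unknown part of each gene, and why their reads differ was not tested. HSPA1A levels were 2.63, 3.18 and 2.86 CPM in controls and 1.99, 2.68 and 1.94 CPM after lncSLCC1 siRNA. The groups overlapped through lncSLCC1 siRNA replicate 2, which lay above control replicate 1. The log2 fold change of -0.38 (SE 0.205, 95% CI -0.84 to 0.07) did not pass the test (edgeR adjusted p = 0.227), and it was -0.44 (SE 0.236) without control replicate 1. With the reads of both genes summed into 1 row, the log2 fold change was -0.46 (SE 0.082, edgeR adjusted p = 0.00761). That sum lost its call when lncSLCC1 siRNA library 2 or 3 was dropped (adjusted p = 0.0609 and 0.0644 by edgeR).

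The co-chaperones of HSP70 among the 10 did not pass the test. HSPH1 encodes HSP110, which exchanges the nucleotide of HSP70 and helps it to take protein aggregates apart. Its levels were 306.0, 432 and 446 CPM in controls and 417, 404 and 421 CPM after lncSLCC1 siRNA. Control replicate 1 lay at 69.7% of the mean of the other controls, and the lncSLCC1 siRNA libraries lay between it and them. The log2 fold change was 0.07 (SE 0.128, 95% CI -0.22 to 0.35, edgeR adjusted p = 0.746), and it was -0.09 (SE 0.051, edgeR adjusted p = 0.21) without control replicate 1 and -0.08 with GC content and length offsets. DNAJB1, the J-domain protein HSP40 that delivers clients to HSP70, stood at 310.4, 250.5 and 241 CPM in controls and at 249.9, 244 and 256 CPM after lncSLCC1 siRNA. Here control replicate 1 was high, at 126% of the mean of the other controls, opposite to HSPH1. The log2 fold change of DNAJB1 was -0.10 (SE 0.1, 95% CI -0.32 to 0.13, edgeR adjusted p = 0.548), and 0.02 without that library.

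**Figure D2:**
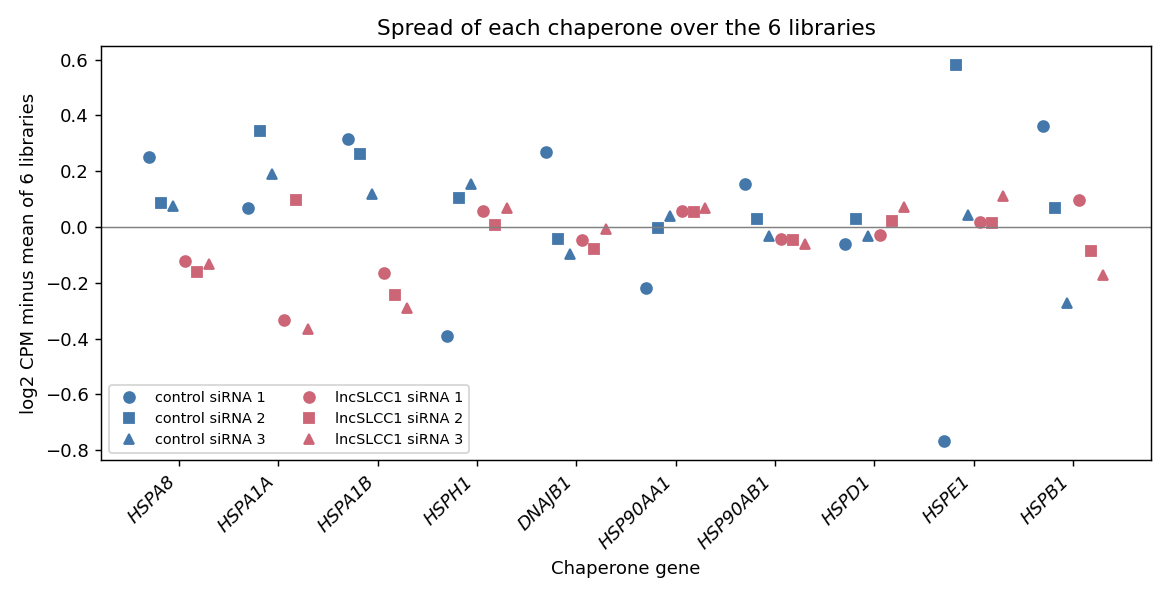
Log2 CPM of each chaperone in each library minus its mean over the 6 libraries (y axis); blue marks control siRNA, red lncSLCC1 siRNA, and circles, squares and triangles replicates 1, 2 and 3. Control replicate 1 is the lowest library for HSPH1, HSP90AA1, HSPD1 and HSPE1 and the highest for HSPA8, HSPA1B, DNAJB1, HSP90AB1 and HSPB1.

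The cytosolic HSP90 genes had log2 fold changes of opposite sign, neither of which passed the test. HSP90AA1, the more stress-inducible isoform, stood at 3164, 3674 and 3791 CPM in controls and at 3838, 3827 and 3867 CPM after lncSLCC1 siRNA, which lay above every control. Its log2 fold change was 0.12 (SE 0.088, 95% CI -0.08 to 0.31, edgeR adjusted p = 0.391), and 0.04 (SE 0.044) without control replicate 1. HSP90AB1, the constitutive isoform, stood at 4133, 3789.97 and 3638 CPM in controls and at 3605, 3598 and 3568 CPM after lncSLCC1 siRNA, which lay below every control. The log2 fold change of HSP90AB1 was -0.10 (SE 0.080, 95% CI -0.28 to 0.08, edgeR adjusted p = 0.412), and -0.05 (SE 0.044) without control replicate 1. In both genes control replicate 1 lay farthest from the lncSLCC1 siRNA libraries, and the lncSLCC1 siRNA libraries were close to each other (3844 ± 20.5 CPM for HSP90AA1 and 3590.4 ± 19.9 CPM for HSP90AB1, mean ± SD, n = 3 per group).

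HSPD1 and HSPE1 encode the mitochondrial chaperonin HSP60 and its lid HSP10, and the genes lie head to head on chromosome 2. HSPD1 stood at 1301, 1382 and 1324 CPM in controls and at 1329, 1376 and 1424 CPM after lncSLCC1 siRNA. The groups overlapped, and among the 10 chaperones HSPD1 had the narrowest confidence interval (log2 fold change 0.04, SE 0.073, 95% CI -0.12 to 0.21, edgeR adjusted p = 0.718; 0.02 without control replicate 1). HSPE1 was counted with 85, 237 and 163 reads in control replicates 1, 2 and 3 and with 157, 163 and 143 reads in the lncSLCC1 siRNA libraries, where HSPD1 had 18309 to 21587. In GENCODE release 29, 47.9% of the annotated coding bases of HSPE1 lie in exons of HSPE1-MOB4, a read-through gene on the same strand that the count tables list with 0 reads in all 6 libraries, and 52.9% of the 50-base words of HSPE1 occur in other genes. Rows of HSPE1 pseudogenes held 26.4% to 43.3% of the reads counted for HSPE1 and its pseudogenes together. What part of the HSP10 RNA the HSPE1 counts hold is therefore unknown, and their log2 fold change was -0.01 with a wide interval (SE 0.264, 95% CI -0.60 to 0.58, edgeR adjusted p = 0.983). Leaving out control replicate 1 moved it to -0.29, and leaving out control replicate 2 to 0.35.

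HSPB1 encodes HSP27, a small heat shock protein that holds unfolded proteins soluble without ATP. Its levels were 898, 734 and 579 CPM in controls and 748, 659 and 620.3 CPM after lncSLCC1 siRNA. The controls spanned the whole range of the lncSLCC1 siRNA libraries, with control replicate 1 highest and control replicate 3 lowest of the 6. The means of 737 ± 159 and 676 ± 65.5 CPM (mean ± SD, n = 3 per group) differed by less than the spread between controls (log2 fold change -0.12, SE 0.143, 95% CI -0.44 to 0.19, edgeR adjusted p = 0.585). Its sign turned to 0.04 without control replicate 1.

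The levels of the 10 genes were ranked per kilobase of the longest GENCODE transcript, as CPM per kilobase averaged over the 6 libraries. HSPA8 was first at 1696, followed by HSP90AB1 at 1392, HSP90AA1 at 1052, HSPB1 at 777 and HSPD1 at 552 CPM per kilobase. DNAJB1 followed at 114, HSPH1 at 77.9 and HSPA1B at 55.4 CPM per kilobase, and HSPE1 (11.2) and HSPA1A (1.03) were last; the counts of HSPA1B, HSPE1 and HSPA1A hold an unknown part of their RNA. The ranges over libraries of neighbours overlapped for HSPA8 and HSP90AB1, for HSP90AA1 and HSPB1, and for HSPH1 and HSPA1B. Within controls alone, HSPA8 ran from 1778 to 2006 and HSP90AB1 from 1360 to 1546 CPM per kilobase, without overlap.

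**Figure D3:**
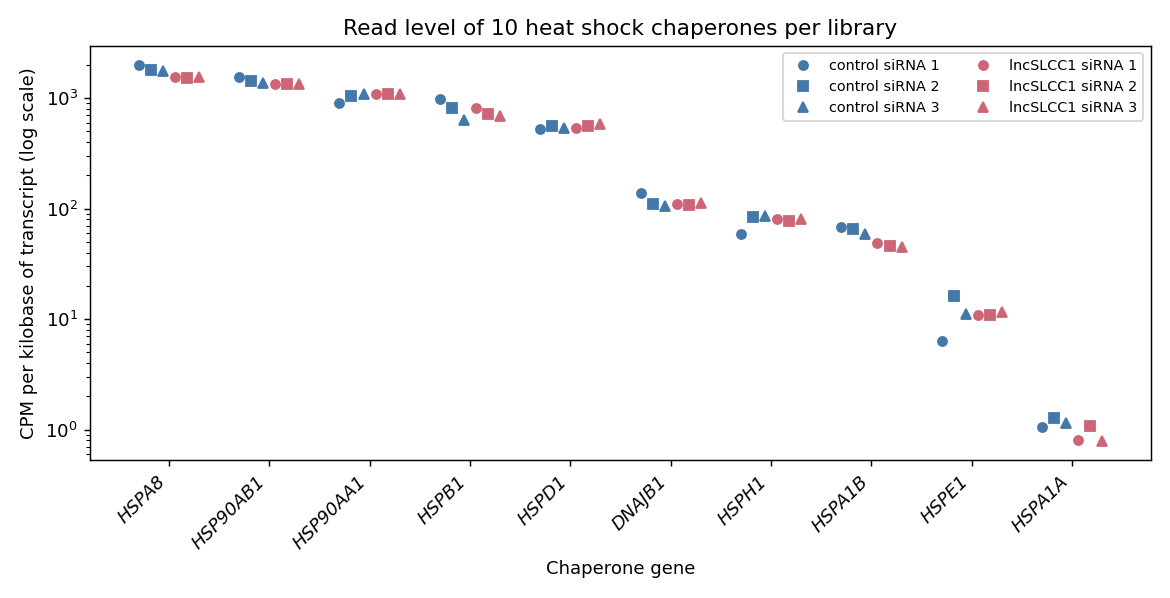
Level of each chaperone in each library in CPM per kilobase of transcript (y axis, log scale); blue marks control siRNA, red lncSLCC1 siRNA, and shapes the replicate. The genes are ordered by their mean over 6 libraries, from HSPA8 at 1696 to HSPA1A at 1.03 CPM per kilobase.

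Ratios of reads within a library need no library size, and 4 such ratios were compared. HSP90AA1 reads per HSP90AB1 read were 0.765, 0.969 and 1.04 in controls and 1.06, 1.06 and 1.08 after lncSLCC1 siRNA. Every lncSLCC1 siRNA library lay above every control, by a mean log2 difference of 0.22 that dropped to 0.09 without control replicate 1. HSPH1 reads per HSPA8 read were 0.0619, 0.0979 and 0.102 in controls and 0.109, 0.109 and 0.111 after lncSLCC1 siRNA, a mean log2 difference of 0.36 that dropped to 0.13 without control replicate 1. Reads of HSPA1A and HSPA1B together per HSPA8 read, the inducible against the constitutive HSP70, were 0.0352, 0.0381 and 0.0348 in controls and 0.0327, 0.0320 and 0.0302 after lncSLCC1 siRNA. This ratio was lower in all 3 lncSLCC1 siRNA libraries, by a mean log2 difference of -0.19, and of -0.20 without control replicate 1. The counts of HSPA1A and HSPA1B hold an unknown part of their RNA, so it is no measure of the inducible share. For these 3 ratios the exact two-sided permutation test gave p = 0.1, the floor for 3 against 3 libraries, and 0.133 after Benjamini-Hochberg adjustment over the 4 ratios, so none can pass at this size. HSPD1 reads per HSPE1 read overlapped between the groups (89.8 to 215 in controls and 128 to 132 after lncSLCC1 siRNA, exact permutation p = 1.0). The HSPE1 counts hold an unknown part of the HSP10 RNA, so this ratio is no measure of HSP60 RNA against HSP10 RNA.

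**Figure D4:**
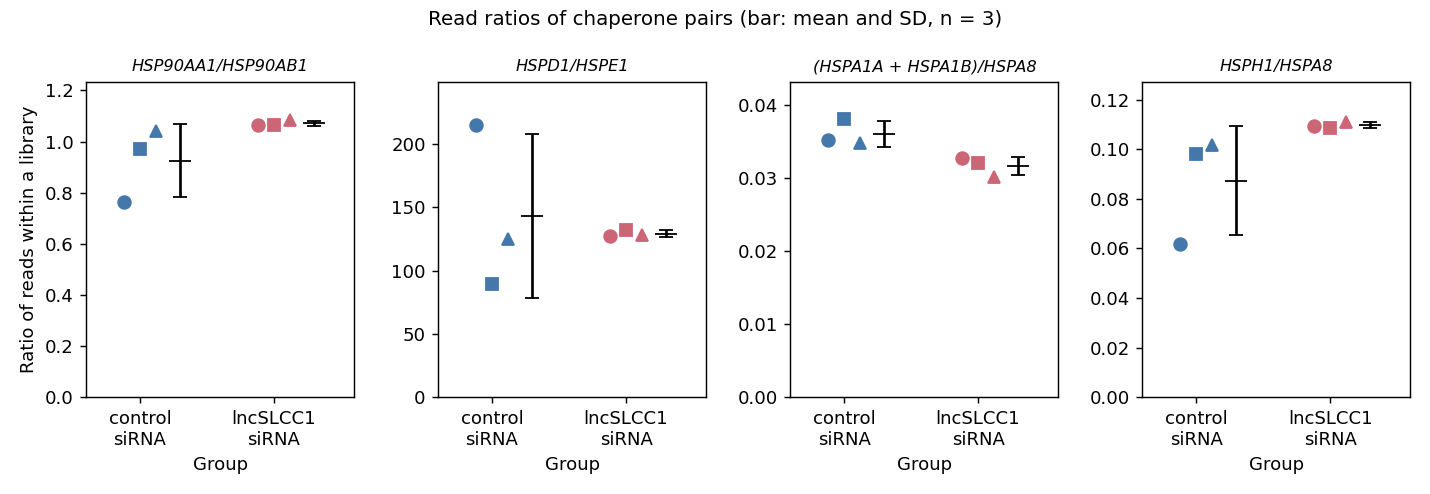
Ratio of reads between chaperones within each library (y axis, from 0) for control siRNA (blue) and lncSLCC1 siRNA (red); shapes mark replicates, and bars the mean and SD (n = 3). Control replicate 1, at 0.765 for HSP90AA1/HSP90AB1 and 0.0619 for HSPH1/HSPA8, is the lowest library in both panels.

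Across the 6 libraries the chaperones did not vary as 1 block, as far as 6 points that share depth and library composition can describe. HSPA8 and HSPA1B varied alike (Pearson r of log2 CPM 0.958 over 6 libraries and 0.967 over 5, without control replicate 1). HSP90AA1 and HSP90AB1 varied in opposite ways (-0.988 and -0.994). Both groups were pooled for these values, and the groups did not overlap for any of these genes. The r values of both pairs therefore hold the group difference and are no separate evidence of shared variation. HSP90AA1 and HSPH1 varied alike over 6 libraries (0.917) but not without control replicate 1 (-0.458), and the opposite variation of HSPH1 and DNAJB1 (-0.958) likewise shrank to -0.251. Of 9261 annotated genes outside the 10 with a mean of at least 10 CPM, those whose log2 CPM followed the mean standardised profile of the 10 most closely were PEX19 (r = 0.985), B2M (0.982), EIF3M (0.978), NEDD4L (0.974) and C4orf3 (0.972). With 6 points and this many genes, such values describe the libraries and no more.

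Partners of these chaperones, and genes known to respond to HSF1 or to heat, were taken as 9 lists with 117 distinct genes. A separate list of endoplasmic reticulum chaperones was not counted here, although some listed proteins, such as DNAJB12, belong to that compartment. Of the 104 tested, 6 fell and 4 rose, against 7.39% lower and 6.46% higher among all tested genes. Among those that fell, SQSTM1, JUN and TXN were listed only as genes that respond to HSF1 or to heat, not as chaperone partners. Their median log2 fold change was -0.09. The list of heat shock factors and HSF1 binding partners gave 0 calls by edgeR among 5 tested members: HSF1, HSF2, HSF4, HSBP1 and HSBP1L1. Without control replicate 1, 2 were lower and 1 higher, where 15.5% of all 15646 genes tested were lower and 13.5% higher (29% called in all). HSF1 stood at 96.5 ± 10.1 and 88.7 ± 3.17 CPM (mean ± SD, n = 3 per group). Its log2 fold change was -0.12 (SE 0.093, edgeR adjusted p = 0.402), and -0.03 without control replicate 1. HSBP1, which encodes a small protein that binds HSF1, had a log2 fold change of -0.17 (SE 0.076, edgeR adjusted p = 0.15). It was 1 of the 2 lower without control replicate 1 (-0.16, edgeR adjusted p = 0.0444). With GC content and length offsets it passed the test too (-0.30, edgeR adjusted p = 0.0168). That setting called far more genes, 1817 higher and 2936 lower, against 984 and 1126 in the main fit. No other setting called HSBP1.

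Among the HSP70 partners, 2 of 10 nucleotide exchange and linker co-chaperones fell and 0 rose (5 and 0 without control replicate 1). Over all tested genes 7.39% fell and 6.46% rose, and 15.5% fell and 13.5% rose without control replicate 1. STIP1 encodes HOP, the adaptor that hands clients from HSP70 to HSP90. It stood at 747, 614 and 608 CPM in controls and at 489, 467 and 503 CPM after lncSLCC1 siRNA. All lncSLCC1 siRNA libraries lay below all controls (log2 fold change -0.43, SE 0.094, edgeR adjusted p = 0.0169), a call lost when lncSLCC1 siRNA library 1, 2 or 3 was dropped (edgeR adjusted p = 0.0822, 0.104 and 0.0754). HSPBP1, which encodes another nucleotide exchange factor, fell from 92.2 ± 17.2 to 67.2 ± 1.59 CPM (mean ± SD, n = 3 per group; log2 fold change -0.46, SE 0.126, edgeR adjusted p = 0.0400). The HSPBP1 call was lost with library totals (0.057), by limma-voom (0.0507) and without control replicate 2 or any 1 lncSLCC1 siRNA library (0.118 to 0.151). Of 8 tested relatives of HSP70, 1 rose: HSPA2, from 2.28 ± 0.362 to 3.84 ± 0.700 CPM (mean ± SD, n = 3 per group; log2 fold change 0.76, SE 0.209, edgeR adjusted p = 0.0401). The call of HSPA2 was lost by DESeq2 (adjusted p = 0.0535) and without control replicate 2 or any 1 lncSLCC1 siRNA library (0.0688 to 0.159).

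Other J-domain proteins of the cytosol and nucleus gave 2 rises and 0 falls among 20 tested (2 and 2 without control replicate 1). The shares over all tested genes were 6.46% higher and 7.39% lower, and 13.5% and 15.5% without that library. DNAJB12, which encodes a J-domain protein anchored in the endoplasmic reticulum membrane and facing the cytosol, rose from 58.5 ± 5.69 to 84.8 ± 2.75 CPM (mean ± SD, n = 3 per group; log2 fold change 0.54, SE 0.093, edgeR adjusted p = 0.00724). DNAJB5, a relative of DNAJB1, rose from 2.64 ± 0.240 to 4.98 ± 0.273 CPM (mean ± SD, n = 3 per group; log2 fold change 0.92, SE 0.162, edgeR adjusted p = 0.00737). In each, the lncSLCC1 siRNA libraries lay above all controls. Dropping control library 2 or lncSLCC1 siRNA library 1 or 3 moved DNAJB12 just past the threshold (adjusted p = 0.0519 to 0.0522 by edgeR), at log2 fold changes of 0.49 to 0.53.

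HSP90 co-chaperones gave 0 calls by edgeR among 15 tested members (1 lower and 2 higher without control replicate 1), with a median log2 fold change of 0.01; CDC37, the adaptor of kinase clients, had the highest CPM of the list, a value not scaled by length, at 480.2 ± 58.3 and 461 ± 13.3 CPM (mean ± SD, n = 3 per group; log2 fold change -0.06, SE 0.093, edgeR adjusted p = 0.695). Of 17 tested mitochondrial chaperones and proteases, 1 rose and 0 fell (2 and 5 without control replicate 1). For both lists the shares over all tested genes were 6.46% higher and 7.39% lower, and 13.5% and 15.5% without that library. The riser was AFG3L2, a subunit of a protease of the inner mitochondrial membrane, from 86.1 ± 1.66 to 109.8 ± 3.42 CPM (mean ± SD, n = 3 per group; log2 fold change 0.35, SE 0.076, edgeR adjusted p = 0.0168), and its call was lost without control replicate 2 or any 1 lncSLCC1 siRNA library (0.0821 to 0.109). Of 10 genes listed as small heat shock proteins beside HSPB1, 1 had enough reads, HSPB11. It was listed by its symbol, so its row says nothing of the small heat shock protein family. The log2 fold change of HSPB11 was 0.04 (SE 0.143, edgeR adjusted p = 0.861), with control replicate 1 at 111 CPM and the other 5 libraries at 151 to 176 CPM.

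In the TRiC chaperonin and prefoldin list, which serves actin and tubulin, 1 of 15 tested members fell and 0 rose (5 and 0 without control replicate 1), with a median log2 fold change of -0.15. Over all tested genes 7.39% were lower and 6.46% higher, and 15.5% and 13.5% without that library. The faller was PFDN2, a prefoldin subunit, from 61.3 ± 10.5 to 45.1 ± 1.41 CPM (mean ± SD, n = 3 per group; log2 fold change -0.44, SE 0.123, edgeR adjusted p = 0.0409); it lost its call with library totals (0.057) and without control replicate 2 or any 1 lncSLCC1 siRNA library (0.117 to 0.161).

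Among 23 tested genes known to respond to HSF1 or to heat, a list that shares genes with those above, 4 fell and 0 rose, beside 7.39% lower among all tested genes (7 and 0 without control replicate 1, beside 15.5% lower), with a median log2 fold change of -0.21, or -0.14 with library totals. SQSTM1, which encodes the selective autophagy receptor p62, stood at 499, 429 and 405 CPM in controls and at 262, 255 and 271 CPM after lncSLCC1 siRNA (log2 fold change -0.76, SE 0.090, edgeR adjusted p = 0.000999). JUN, a subunit of the AP-1 transcription factor, stood at 133, 124 and 97.9 CPM in controls and at 68.0, 69.0 and 61.8 CPM after lncSLCC1 siRNA (-0.84, SE 0.118, edgeR adjusted p = 0.0027). STIP1 and TXN, which encodes thioredoxin, were the others that fell; TXN (-0.37, SE 0.092, edgeR adjusted p = 0.0284) was named after its values were seen, and its call was lost when control library 2 or any 1 lncSLCC1 siRNA library was dropped (0.104 to 0.148). SQSTM1, JUN and TXN also belong to other stress programmes.

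In the endoplasmic reticulum, 1 of 15 tested chaperones fell and 0 rose (1 and 4 without control replicate 1), with a median log2 fold change of 0.07. Beside them, 7.39% of all tested genes were lower and 6.46% higher, and 15.5% and 13.5% without that library. The faller, PDIA4, which encodes a protein disulfide isomerase, stood at 418, 352 and 346 CPM in controls and at 216, 205 and 207 CPM after lncSLCC1 siRNA (log2 fold change -0.83, SE 0.089, edgeR adjusted p = 0.000603).

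**Figure D5:**
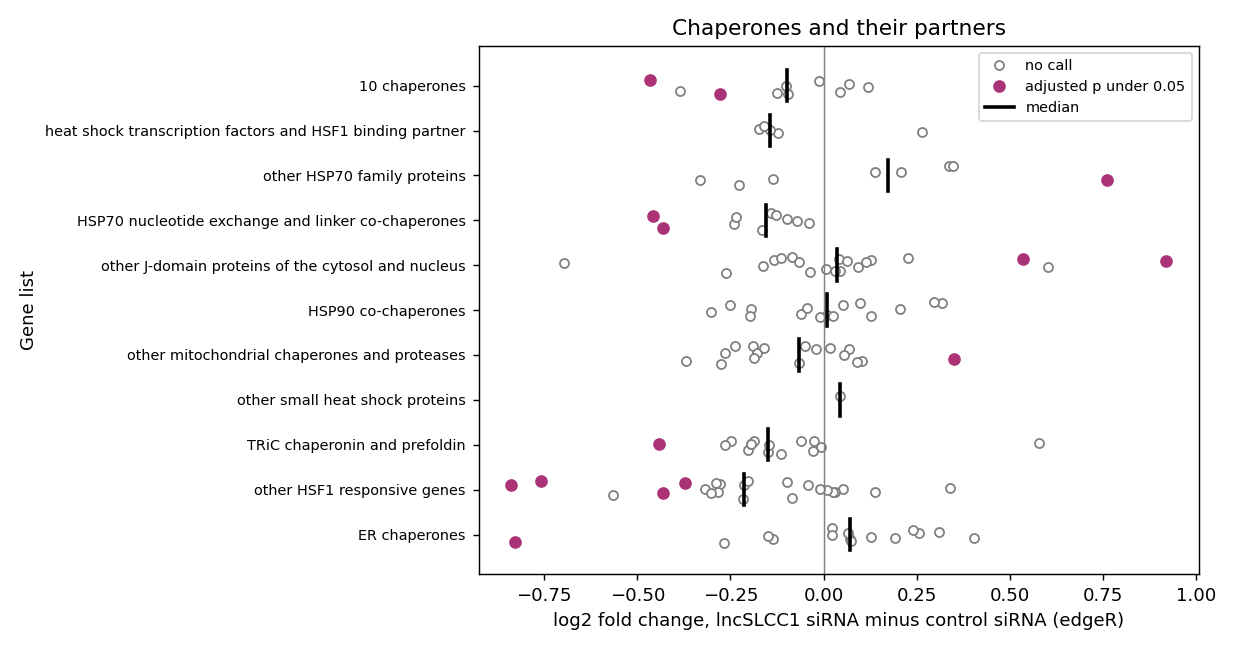
Log2 fold change (x axis, lncSLCC1 siRNA minus control siRNA, edgeR) of each tested gene in the 10 chaperones and in the other lists. These are partners, HSF1 responsive genes and endoplasmic reticulum chaperones. Filled points passed an adjusted p of 0.05, open points did not, and black bars mark list medians. List medians lie between -0.21 and 0.17.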

How the data were processed

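RNA-seq of 6 DLD-1 libraries (3 control siRNA, 3 lncSLCC1 siRNA; groups from the sample titles) was used. The authors deposited raw read counts per gene symbol, 1 table per library. TopHat2 2.0.11 and HTSeq, with hg19 and GRCh37, are named in the submitters' processing notes; no annotation release or strand setting is given in the sources used here, and reads of overlapping genes on opposite strands cannot be told apart. Lines of the tables that name no gene took no part: reads outside genes made up 5.42% to 7.58%, ambiguous reads 8.83% to 10.1% and reads with several alignments 12.8% to 13.8% of each table. Gene reads per library ran from 12572277 to 15568075.

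Tests used edgeR 4.0.16 in R 4.3.3 (quasi-likelihood, TMM, default filter, no covariate), with Benjamini-Hochberg adjustment over 15242 genes and calls at an adjusted p under 0.05. The biological coefficient of variation was 10.9%. Each standard error is the log2 fold change over the root of its F value. DESeq2 1.42.0 and limma 3.58.1 were alternatives. Transcript lengths, GC content, exon overlap and 50-base words came from GENCODE release 29 (GRCh38), by symbol, and promoters from RefSeq (GRCh38.p14); no coordinates were carried to the build of the counts. Lengths and GC content were found for 89.4% of tested genes.

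The chaperones, lists and tests were chosen with earlier results of these data known. Named from each list were up to 3 called genes with the smallest p or, with none called, the gene with the highest mean CPM, together with HSF1, the targeted RNA and the 5 genes most alike in profile. Fibroblast, leukocyte and endothelial lists served as checks. The 13 mitochondrially encoded transcripts, a check of RNA composition, gave 0 calls by edgeR. Without control replicate 1, 1 was lower and 3 were higher, beside 15.5% lower and 13.5% higher among all tested genes. Their summed level was 58138 to 66709 CPM in controls and 59556 to 60655 CPM after lncSLCC1 siRNA.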

Additional observations from a re-analysis of the deposited data

How the results depend on the processing

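The counts of called genes moved with single libraries and with some settings. Leaving out 1 library at a time gave 213 to 2112 genes higher and 244 to 2431 lower, against 984 and 1126 with all 6. Without control replicate 1 or 3 there were 2112 higher and 2431 lower, or 1614 and 2088; without control replicate 2, 264 and 352; and without lncSLCC1 siRNA replicates 1, 2 and 3, 272 and 318, 222 and 249, and 213 and 244. Library totals gave 1441 higher and 821 lower (63.7% higher, in place of 46.6%), GC content and length offsets 1817 and 2936 (38.2%), and no low-count filter 1600 and 1672 (48.9%). The number of the 10 chaperones called lower ran from 0 to 2 over the libraries left out and was 1 with library totals, with a filter at a mean of 1 CPM and with robust empirical Bayes, where HSPA8 lay just past the threshold; 0 were called higher in any of these settings. The cause of these moves was not tested.

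Replicate numbers are those of the sample titles, and the names of the deposited tables number the replicates differently. The title numbers are shared by the groups, but samples with the same number did not deviate together (correlations of 0.09, 0.00 and -0.02, and control replicates 2 and 3 correlated best with another number). With the replicate block 1 chaperone was called lower (HSPA1B; HSPA8 had an edgeR adjusted p of 0.0944), and 993 genes were higher and 1059 lower.

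Signs turned only among chaperones and partners that had not passed the test. HSPE1 (-0.01) became 0.051 with library totals, 0.057 with the replicate block, 0.081 by limma-voom, 0.069 with GC content and length offsets, 0.057 with pseudogene rows summed in (an alternative chosen after seeing the data), and ranged from -0.291 to 0.346 over libraries left out. GC content and length offsets also turned HSPH1 to -0.078, HSPB1 to 0.004 and CDC37 to 0.021, and library totals turned CDC37 to 0.012. Over the libraries left out, log2 fold changes ran from -0.087 to 0.162 for HSPH1, from -0.168 to 0.024 for DNAJB1, from -0.275 to 0.041 for HSPB1, from -0.134 to 0.04 for CDC37 and from -0.128 to 0.177 for HSPB11, and the log2 difference of HSPD1/HSPE1 from -0.344 to 0.288. HSPE1 stood at about 11 CPM and HSPA1A at 3 CPM, with 85 to 237 and 25 to 49 reads per library. For HSPE1 the controls varied more (SD 4.68 CPM) than the lncSLCC1 siRNA libraries (SD 0.417 CPM). Why these rows varied was not tested.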
